A study of Homo sapiens with 6 samples.

Results

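Tight junction genes were examined in LX2 cells, a human line derived from hepatic stellate cells that models the matrix-producing cell of the injured liver. CLDN11, CLDN12, CLDN15, CLDN4, CLDN1, CLDN7, F11R, OCLN and TJP1 were followed, 9 of the 60623 genes in the deposited table, and each symbol matched 1 row. The set was chosen by the measured difference in FPKM between the 2 groups below, since CLDN11 is among the largest falls, so their differences between groups are given as a description, without a test. The cells were transfected for 36 h with an siRNA against SHMT2 (siSHMT2, 3 libraries, genotype given as SHMT2 knockdown) or with a control siRNA (siNC, 3 libraries, genotype given as WT). Both groups were LX2 cells kept in DMEM with 2% fetal bovine serum, and total RNA was sequenced. Untransfected cells were not analysed here, the sequences of both siRNAs were not used here, and the labels do not say whether replicates were separate cultures. The p-values below therefore measure only the spread between these libraries, which may be technical.

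Tight junctions seal the space between neighbouring epithelial or endothelial cells. Claudins are small proteins that cross the membrane several times and polymerise into strands, and each claudin sets which ions or solutes the strand lets through. Occludin (OCLN) and the junctional adhesion molecules sit beside the strands, and zonula occludens scaffolds such as TJP1 tie them to actin. CLDN11 is best known from the myelin of oligodendrocytes and the junctions between Sertoli cells, where it is a main strand protein. Stellate cells are mesenchymal and are not known for sealing epithelia.

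Presence of GACTTTA or ACTTTAA within a 3′ UTR is a feature that the choice of these genes did not use, although both words had been picked earlier for going with lower transcripts in this same comparison. They overlap each other by 6 bases, were searched on the sense strand only, and are described here, not tested. In the longest 3′ UTR of a protein-coding transcript in GENCODE release 29 (GRCh38), 3 of the 9 genes held either word. The 3 sites are shown with the word in capitals and 10 bases on each side, because CLDN11 is one of the genes that hold it. CLDN11 carried GACTTTA from base 1002 of a 3′ UTR of 1343 bases, shown here as chr3:170433748-170433774, plus strand. F11R carried ACTTTAA (chr1:160996229-160996255, minus strand), and so did OCLN (chr5:69557439-69557465, plus strand).
CLDN11: gaaccacataGACTTTAtgcaataaat
F11R: gtctgcattcACTTTAAaatgtcaaaa
OCLN: agaaggtgaaACTTTAAcaagttttct

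CLDN12, CLDN15, CLDN4, CLDN1, CLDN7 and TJP1 held neither word in the longest 3′ UTR or in any other annotated one. Of all 9386 tested protein-coding genes with a 3′ UTR of at least 50 bases, 24.6% held either word, and the share grew with length. Among tested genes whose 3′ UTR was 0.8 to 1.25 times as long, 21.8% held one beside CLDN11, 46.0% beside F11R and 50.9% beside OCLN. SHMT2 itself had GACTTTA in its coding sequence, at chr12:57234049-57234075 on the plus strand, shown because SHMT2 is the gene the siRNA was made against.
SHMT2: gagagttgtgGACTTTAtagatgaagg

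SHMT2, the mitochondrial serine hydroxymethyltransferase, was depleted in every siSHMT2 library. It had 2.25, 2.10 and 2.42 FPKM in the siSHMT2 libraries, against 40.8, 56.3 and 45.1 FPKM in the siNC libraries. FPKM is the number of fragments per kilobase of gene, scaled to a total set for each library. The exact permutation test of 3 against 3 libraries (two-sided) gave p = 0.1, the smallest it allows. Whole reads could be recovered from the FPKM values and summed to between 14722344 and 15669139 per library. Libraries of the siNC group were further apart (median SD over tested genes 0.105 in siSHMT2 and 0.191 in siNC on the log2 scale). In siNC replicate 2, 18723 genes were above 0, against 20559 to 21136 in the other libraries. The part of this library in the wider siNC spread was not tested.

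Epithelial markers were mixed, and all 6 endothelial markers lay below a mean of 1 FPKM. Of 8 epithelial markers, EPCAM and CDH1 stayed at or below 0.0312 FPKM in every library, GRHL2 and ESRP1 were listed at 0, and KRT8, KRT18 and KRT7 passed a mean of 1 FPKM. The summed level of the 8 was 116 to 155 FPKM in siSHMT2 and 124 to 171 FPKM in siNC, nearly all of it keratins. KRT8 lay wholly higher in siSHMT2, with a mean of 57.0 FPKM against 43.2 FPKM in siNC. KRT18 overlapped between groups, with a mean of 78.3 FPKM in siSHMT2 and 107 FPKM in siNC, and so did KRT7. Markers of stellate cells and fibroblasts summed to 719 to 812 FPKM in siSHMT2, below the 1051 to 1199 FPKM in siNC. Most of that gap was VIM, the intermediate filament vimentin, with a mean of 501 FPKM in siSHMT2 and 823 FPKM in siNC, and THY1 also lay wholly lower. The collagens COL1A1, COL1A2 and COL3A1 and the receptor PDGFRB overlapped between groups, as did ACTA2, which averaged 0.782 FPKM in siSHMT2 and 0.427 FPKM in siNC. Of those 12 markers 6 passed a mean of 1 FPKM, LRAT was listed at 0, and the part of the lower VIM and THY1 in the results below was not tested. Oligodendrocyte markers summed to 0.503 to 0.571 FPKM in siSHMT2 and 0.820 to 0.896 FPKM in siNC, and MOG and MAG, which define myelin, were listed at 0. Sertoli markers summed to 31.1 to 38.1 FPKM in siSHMT2 and 34.0 to 42.2 FPKM in siNC, almost all of it AMH, with DMRT1 listed at 0. Among them WT1 lay wholly lower in siSHMT2, with a mean of 0.440 FPKM against 1.05 FPKM in siNC. AMH, GATA4 and INHA overlapped between groups. Endothelial markers summed to 0.526 to 0.631 FPKM in siSHMT2 and 0.596 to 0.845 FPKM in siNC. Hepatocyte markers summed to 0.299 to 0.454 FPKM in siSHMT2 and 0.330 to 1.36 FPKM in siNC, and macrophage or leukocyte markers, nearly all CD14, to 13.6 to 15.4 FPKM in siSHMT2 and 14.6 to 19.5 FPKM in siNC.

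CLDN11 was by far the most abundant claudin and lay several-fold lower in every siSHMT2 library. CLDN11 (chromosome 3, 170418865 to 170454733, plus strand) had 30.6, 26.2 and 30.5 FPKM in the siSHMT2 libraries, against 209.7, 205 and 181 FPKM in the siNC libraries. The 3 siSHMT2 libraries lay close together and far under the lowest siNC library. These levels rested on 1828, 1620 and 1801 reads in siSHMT2 and on 13694, 11065 and 10629 reads in siNC, so counting error is small beside the gap. Its mean in siSHMT2 was 14.7% of that in siNC, a difference of -2.73 on the log2(FPKM + 1) scale (SE 0.122, limma). Only 3 of the 10865 tested genes, SHMT2 among them, had a more negative difference. In bulk RNA, fewer cells with CLDN11 transcripts and fewer transcripts per cell cannot be told apart.

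Among protein-coding genes CLDN11 ranked between 1530 and 1726 by FPKM in the siSHMT2 libraries and between 171 and 262 in the siNC libraries, out of 19976. That places a claudin among the abundant transcripts of siNC cells. Without each library in turn the difference stayed between -2.79 and -2.66. Exons of a protein-coding gene on the same strand cover 18.3% of the exon bases of CLDN11. That gene was listed at no more than 0.0404 FPKM in any library, and the sources used here do not give how reads in the shared bases were assigned.

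**Figure D1:**
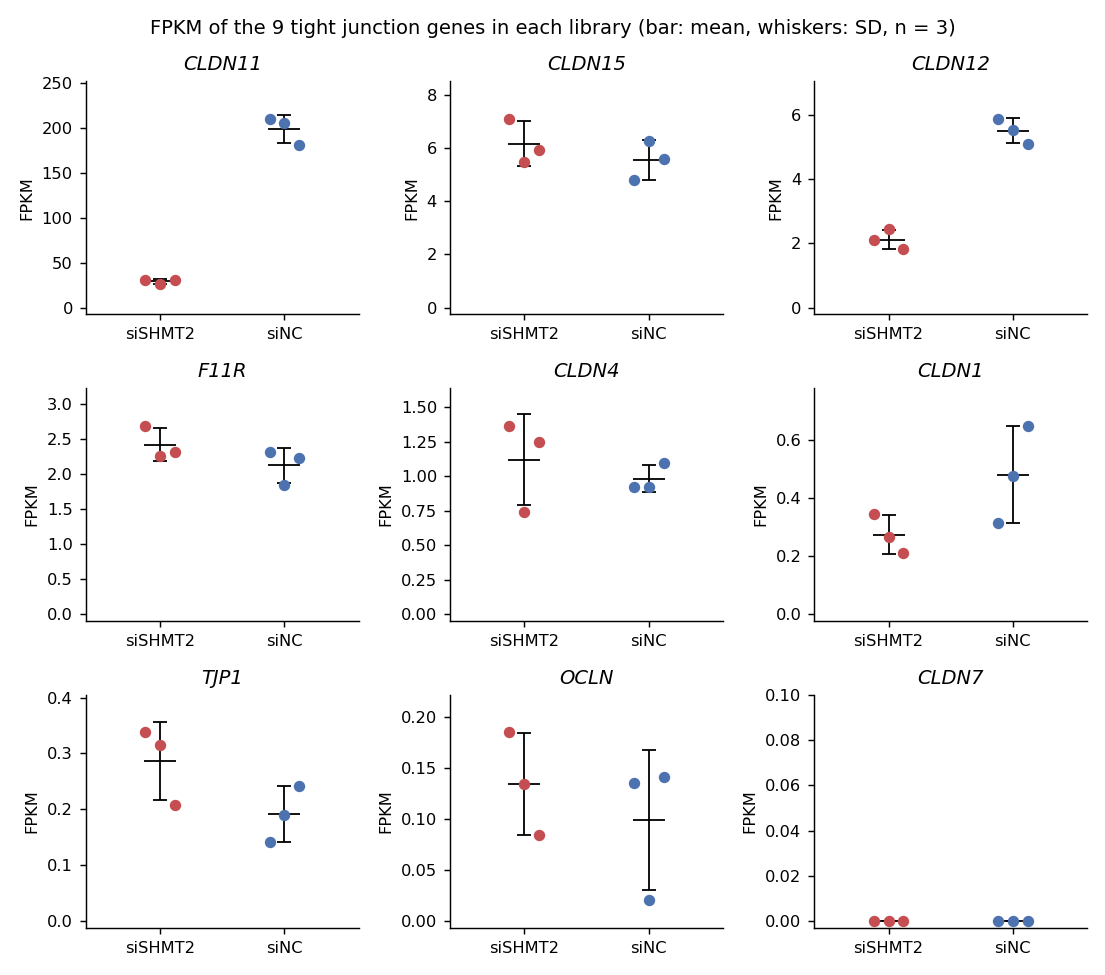
FPKM of each of the 9 genes (vertical axes, linear, 1 scale per gene) in the siSHMT2 libraries (red, left) and siNC libraries (blue, right); points are libraries, bars means and whiskers SD, n = 3. CLDN11 (26.2 to 30.6 FPKM in siSHMT2, 181 to 209.7 in siNC) and CLDN12 (1.83 to 2.44 in siSHMT2, 5.11 to 5.89 in siNC) have groups that do not overlap, and the other 7 genes overlap or are listed at 0.

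CLDN12 was the other one of the 9 genes whose groups did not overlap. It encodes an atypical claudin that lacks the usual scaffold-binding end of the family. CLDN12 (chromosome 7, 90383721 to 90513402, plus strand) had 2.09, 2.44 and 1.83 FPKM in the siSHMT2 libraries, against 5.89, 5.55 and 5.11 FPKM in the siNC libraries. Every siSHMT2 library had less than any siNC library, from 194 to 271 reads in siSHMT2 and 539 to 691 reads in siNC. Its mean in siSHMT2 was 38.4% of that in siNC, and the difference was -1.06 on the log2(FPKM + 1) scale (SE 0.109). This scale understates the change of such a low gene: the difference was -1.35 with a pseudocount of 0.1 and -1.31 with limma voom on recovered reads. Exons of 4 other genes cover 16.3% of the exon bases of CLDN12.

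CLDN15, which forms cation-permeable strands in the intestine, had levels that overlapped between groups. CLDN15 (chromosome 7, 101232092 to 101238820, minus strand) had 7.09, 5.46 and 5.93 FPKM in siSHMT2 and 4.78, 6.27 and 5.60 FPKM in siNC. The difference was 0.13 (SE 0.127), about the size of its error. CLDN4, a barrier-forming claudin of many epithelia (chromosome 7, 73799542 to 73832693, plus strand), had 1.37, 0.744 and 1.25 FPKM in siSHMT2 and 0.924, 0.925 and 1.09 FPKM in siNC. Its siSHMT2 libraries lay on both sides of the siNC range, with a difference of 0.09 (SE 0.148).

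CLDN1, a barrier claudin of skin and bile ducts, lay below the filter of a mean of 1 FPKM over the 6 libraries. CLDN1 (chromosome 3, 190305707 to 190322446, minus strand) had 0.344, 0.266 and 0.209 FPKM in siSHMT2 and 0.315, 0.476 and 0.648 FPKM in siNC. With 12 to 20 reads in siSHMT2 and 20 to 37 reads in siNC, the ranges just overlapped. CLDN7, an epithelial claudin also found along the lateral membrane (chromosome 17, 7259903 to 7263983, minus strand), was listed at 0 in all 6 libraries. A listed 0 need not mean an absent transcript, since ARHGAP17, a gene of wide expression, was also listed at 0 in every library.

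F11R, the junctional adhesion molecule A that helps place polarity proteins at the junction, was low in both groups. F11R (chromosome 1, 160995211 to 161021343, minus strand) had 2.69, 2.25 and 2.31 FPKM in siSHMT2 and 2.30, 1.84 and 2.22 FPKM in siNC. Its groups overlapped, with a difference of 0.13 (SE 0.111), though 36.6% of its exon bases are shared with another protein-coding gene on the same strand. That gene was listed at no more than 0.0856 FPKM. OCLN (chromosome 5, 69492292 to 69558104, plus strand) had 0.185, 0.134 and 0.0842 FPKM in siSHMT2 and 0.135, 0.0204 and 0.141 FPKM in siNC, from 2 to 20 reads per library. TJP1 (chromosome 15, 29699367 to 29968865, minus strand) had 0.338, 0.316 and 0.208 FPKM in siSHMT2 and 0.142, 0.190 and 0.243 FPKM in siNC, from 28 to 61 reads. For both genes the groups overlapped, at read numbers where counting error is large. The groups of TJP1 overlapped only because siSHMT2 replicate 3 lay below siNC replicate 3, and its mean was 0.287 FPKM in siSHMT2 and 0.192 FPKM in siNC.

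Ordered by FPKM, which is per length, the 9 genes formed the same top and bottom in both groups. In siSHMT2 the order was CLDN11, CLDN15, F11R, CLDN12, CLDN4, TJP1, CLDN1, OCLN and CLDN7, and the ranges of F11R and CLDN12 and those of TJP1 and CLDN1 overlapped. In siNC the order was CLDN11, CLDN15, CLDN12, F11R, CLDN4, CLDN1, TJP1, OCLN and CLDN7, and the ranges of CLDN15 and CLDN12 overlapped. CLDN11 averaged 29.1 ± 2.52 FPKM in siSHMT2 and 198 ± 15.4 FPKM in siNC (SD, n = 3), and CLDN15, the next, 6.16 ± 0.841 FPKM in siSHMT2 and 5.55 ± 0.748 FPKM in siNC. CLDN11 thus remained the highest of the 9 genes in siSHMT2 cells, at a level above the next gene in every library.

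Of the 5 genes that passed the filter (CLDN11, CLDN12, CLDN15, CLDN4 and F11R), CLDN11 and CLDN12 were called lower at a limma adjusted p of 0.05, where 9.85% of all tested genes were called lower. All siSHMT2 libraries lay below all siNC libraries for the same 2 genes, as they did for 18.6% of all tested genes, while 17.9% of tested genes lay wholly above. Because these genes were chosen with the comparison in view, nothing is read from either count.

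**Figure D2:**
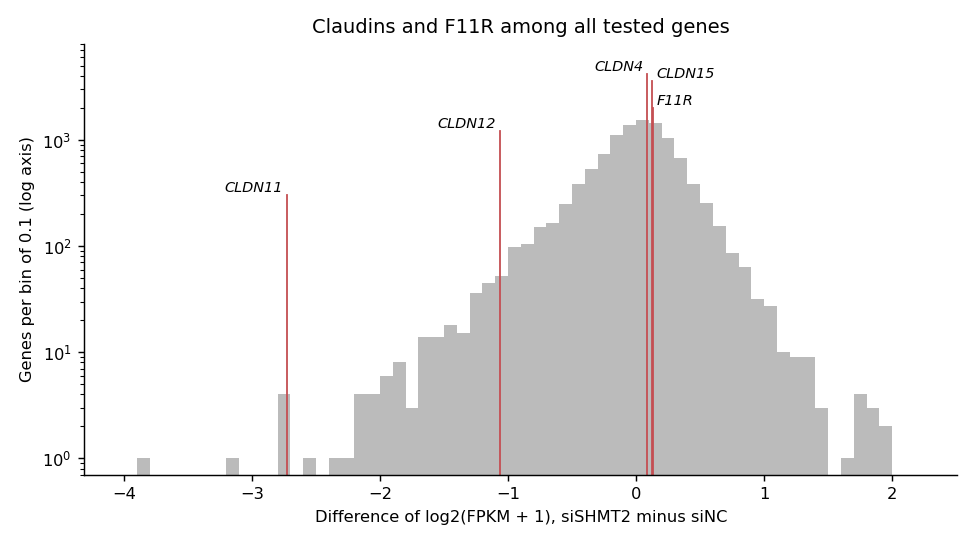
Histogram of the difference of log2(FPKM + 1), siSHMT2 minus siNC (horizontal axis), over the 10865 tested genes (vertical axis, genes per bin of 0.1, log axis), with red lines at the 5 tested genes of the set. CLDN11 lies at -2.73 in the far lower tail and CLDN12 at -1.06, while CLDN4, CLDN15 and F11R lie at 0.09 to 0.13.

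Over the whole claudin family the summed level was lower in siSHMT2, and CLDN11 made up less of it. Of the 24 claudin genes, 5 passed the filter, 11 were detected below it and 8 were listed at 0. The 24 summed to 44.2, 36.8 and 42.0 FPKM in the siSHMT2 libraries, against 225, 223 and 198 FPKM in the siNC libraries. CLDN11 made up 71.0% ± 1.82 of this sum in siSHMT2 and 92.2% ± 0.993 in siNC (SD, n = 3). The other 23 claudins together had 13.6, 10.6 and 11.4 FPKM in siSHMT2 and 15.2, 17.96 and 17.2 FPKM in siNC, so their summed ranges did not overlap either. CLDN12 and CLDN14 carried that gap: CLDN12 averaged 2.12 FPKM in siSHMT2 and 5.51 FPKM in siNC, and CLDN14 averaged 0.729 FPKM in siSHMT2 and 2.36 FPKM in siNC. CLDN15, CLDN4 and CLDN9 had means that were slightly higher in siSHMT2, with groups that overlapped. Among those listed at 0, CLDN22 lies wholly within exons of WWC2 on the other strand, and 46.1% of the exon bases of CLDN10, which stayed below the filter, are shared with DZIP1.

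**Figure D3:**
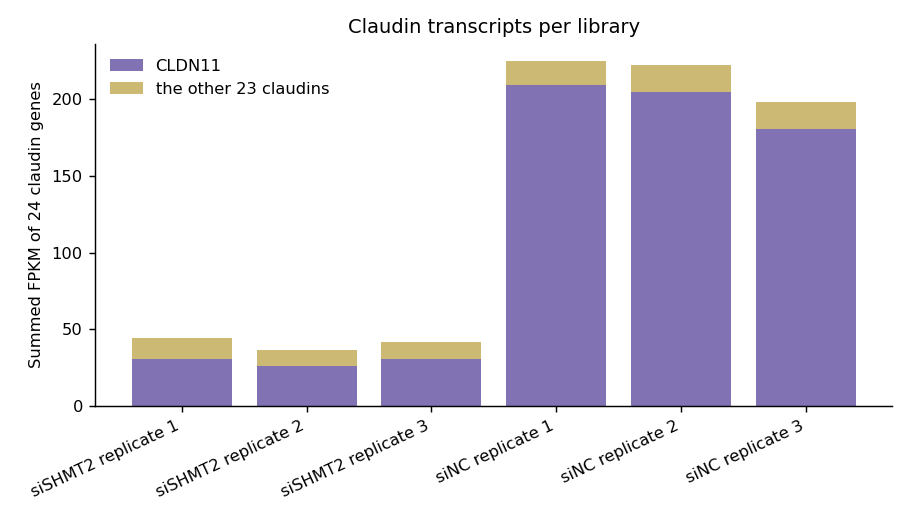
Summed FPKM of the 24 claudin genes (vertical axis, from 0) in each library, siSHMT2 left of siNC; purple is CLDN11 and yellow the other 23 claudins. The siSHMT2 bars reach 36.8 to 44.2 FPKM and the siNC bars 198 to 225 FPKM, and the yellow part is 10.6 to 13.6 FPKM in siSHMT2 and 15.2 to 17.96 FPKM in siNC.

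The other genes of the junction were taken from 6 lists covering claudins, membrane proteins, plaque scaffolds, polarity regulators, adherens junctions and transcription regulators. Of 94 listed genes besides the 9, 43 passed the filter, and limma (adjusted over all tested genes) called 5 lower and 2 higher. That is 11.6% lower and 4.65% higher, beside 9.85% and 6.07% of all tested genes. The median difference of the 43 was -0.04, against 0.02 over all tested genes. The lower calls were CLDN14, JAM3, CDH2, TIAM1 and PRKCI, and the higher ones were JUP and PARD6G. CLDN14, TIAM1 and PARD6G passed the filter only through the group where they were higher. Their mean in the lower group was 0.729 FPKM for CLDN14 and 0.620 FPKM for TIAM1 (siSHMT2) and 0.876 FPKM for PARD6G (siNC). The lower count was 3 without siNC replicate 1, siSHMT2 replicate 1 or siSHMT2 replicate 3 and 8 without siNC replicate 2, and the higher count was 0 without any 1 of the siSHMT2 libraries and 1 without siNC replicate 3. Among all tested genes the lower calls were 61.9% of calls, but 47.5% after rescaling to TPM, where the median of all genes was 0.11 in place of 0.02, and 48.3% with voom on recovered reads, where it was 0.10.

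CLDN14, a claudin of the inner ear and kidney and the only tested claudin outside the 9 genes, fell, while the tested CLDN15 and CLDN4 overlapped between groups, as given above. CLDN14 had 0.917, 0.608 and 0.664 FPKM in siSHMT2 and 1.82, 2.20 and 3.04 FPKM in siNC. Every siSHMT2 library lay below the siNC range, from 84 reads in all against 266. All siSHMT2 libraries were also below 1 FPKM, so CLDN14 passed the filter only through siNC. The difference was -0.94 (SE 0.158, limma adjusted p = 0.00704) and it was called in each of the 15 alternatives that tested it. An antisense gene, at 2.86 to 5.26 FPKM, shares 4.63% of its exon bases.

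JAM3, the junctional adhesion molecule C, fell, whereas JAM2 did not pass the test. JAM3 had 6.87, 6.20 and 6.55 FPKM in siSHMT2 and 11.2, 13.0 and 12.8 FPKM in siNC. The groups were well apart, with a difference of -0.82 (SE 0.0986, limma adjusted p = 0.00179). Its exons share 8.53% of their bases with NCAPD3 on the other strand. JAM2 averaged 4.18 ± 0.316 FPKM in siSHMT2 and 4.54 ± 0.568 FPKM in siNC (SD, n = 3), a difference of -0.09 (SE 0.110, limma adjusted p = 0.622). Whether JAM3 and JAM2 differ from each other in response was not tested. Of the 11 listed genes of this class besides F11R and OCLN, the other 9 lay below the filter.

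Plaque scaffolds, the cytoplasmic proteins that cluster the strands, had 0 of 7 tested members called by limma. At an unadjusted p below 0.05 there were 2 lower and 1 higher, and voom called 0 lower and 1 higher (AMOTL1). The largest differences were -0.51 for AMOTL2 and 0.35 for AMOTL1, a pair of angiomotin-like proteins, and -0.34 for MPP5, also called PALS1, a partner of the Crumbs complex. YBX3, a junction-associated factor that binds nucleic acid, differed by 0.20 and SYMPK, symplekin, the most abundant of the list, by -0.17. MPP5 and AMOTL1 were called without siNC replicate 2 (limma adjusted p = 0.0276 and 0.0426), and AMOTL2 without siNC replicate 3 (limma adjusted p = 0.0221). Array weights also called MPP5 and AMOTL1 (limma adjusted p = 0.00369 and 0.00268).

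Polarity and small GTPase regulators had 2 of 15 tested genes lower and 1 higher. That is 13.3% and 6.67%, beside 9.85% and 6.07% of all tested genes. Of those called, TIAM1 and PARD6G passed the filter only through the group where they were higher. TIAM1, an exchange factor for Rac that binds the Par complex, had 0.684, 0.641 and 0.535 FPKM in siSHMT2 and 1.72, 1.33 and 1.34 FPKM in siNC. It fell by 0.60 (SE 0.124, limma adjusted p = 0.0162), with groups that did not overlap. The call was lost on leaving out siSHMT2 replicate 1, 2 or 3 (0.0607, 0.0613 and 0.0745), with TPM (0.0568) and with no filter (0.0582). TIAM1 was tested in only 12 alternatives, since its mean lay below the filter without any 1 of the siNC libraries. Every fit without 1 library that tested TIAM1 thus lost the call. PRKCI, the atypical protein kinase C of that complex, had 3.04, 3.55 and 2.58 FPKM in siSHMT2 and 5.43, 4.32 and 4.63 FPKM in siNC. It fell by 0.52 (SE 0.124, limma adjusted p = 0.0290), a call lost when siSHMT2 replicate 1 or 3 (0.104 and 0.110) or siNC replicate 1 or 3 (0.0587 and 0.0658) was left out. PRKCI was not called in 8 of 15 alternatives, among them TPM (0.158), voom (0.0739) and no filter (0.10). PARD6G, an adaptor of the same complex, had 1.92, 2.14 and 1.48 FPKM in siSHMT2 and 1.30, 0.543 and 0.788 FPKM in siNC. It rose by 0.61 (SE 0.174, limma adjusted p = 0.0497), and this call was lost in 11 of 15 alternatives, including every fit without 1 library except siNC replicate 1 (0.0779 to 0.170). DLG1, a scaffold of lateral polarity, differed by -0.56 (limma adjusted p = 0.0579) and was called without siNC replicate 2 (0.00629) and with array weights (8.84e-04). RHOA, the most abundant of the list, averaged 349 ± 14.0 FPKM in siSHMT2 and 331 ± 17.1 FPKM in siNC (SD, n = 3), a difference of 0.08.

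Adherens junctions, the cadherin contacts that lie next to tight junctions, had 1 of 10 tested genes lower and 1 higher. Each is 10%, beside 9.85% lower and 6.07% higher among all tested genes. CDH2, the mesenchymal N-cadherin, had 6.65, 6.99 and 6.62 FPKM in siSHMT2 and 18.6, 13.7 and 15.0 FPKM in siNC. The siSHMT2 libraries were all under the lowest siNC library, with a difference of -1.10 (SE 0.123, limma adjusted p = 0.00136). JUP, plakoglobin, which links cadherins to the cytoskeleton, had 8.48, 9.04 and 9.23 FPKM in siSHMT2 and 5.93, 5.10 and 6.60 FPKM in siNC. It rose by 0.53 (SE 0.108, limma adjusted p = 0.0154), with no overlap, and the call was lost on leaving out siSHMT2 replicate 1, 2 or 3 (0.0574, 0.0650 and 0.0700). NECTIN3 and NECTIN2, adhesion molecules of the same contacts, differed by -0.41 and -0.26 and were not called. With array weights both were called lower (limma adjusted p = 0.00413 for NECTIN3 and 0.0317 for NECTIN2), and NECTIN3 also without siNC replicate 2 (0.0318). CDH1, the epithelial cadherin, was at or near 0 in both groups.

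Of 8 tested transcription regulators of junction genes, limma called 0 (2 lower and 0 higher at an unadjusted p below 0.05, and 0 by voom). The repressors SNAI1, ZEB2 and SNAI2 differed by -0.44, -0.25 and -0.20, and SOX9 and TWIST1 by -0.16 and -0.04. SNAI2 was called lower without siNC replicate 2 (limma adjusted p = 0.0121), with a difference of -0.54. With array weights SNAI1 and SNAI2 were called lower (limma adjusted p = 0.00714 and 0.0321). The epithelial factors GRHL2, OVOL1 and OVOL2 were listed at 0.

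**Figure D4:**
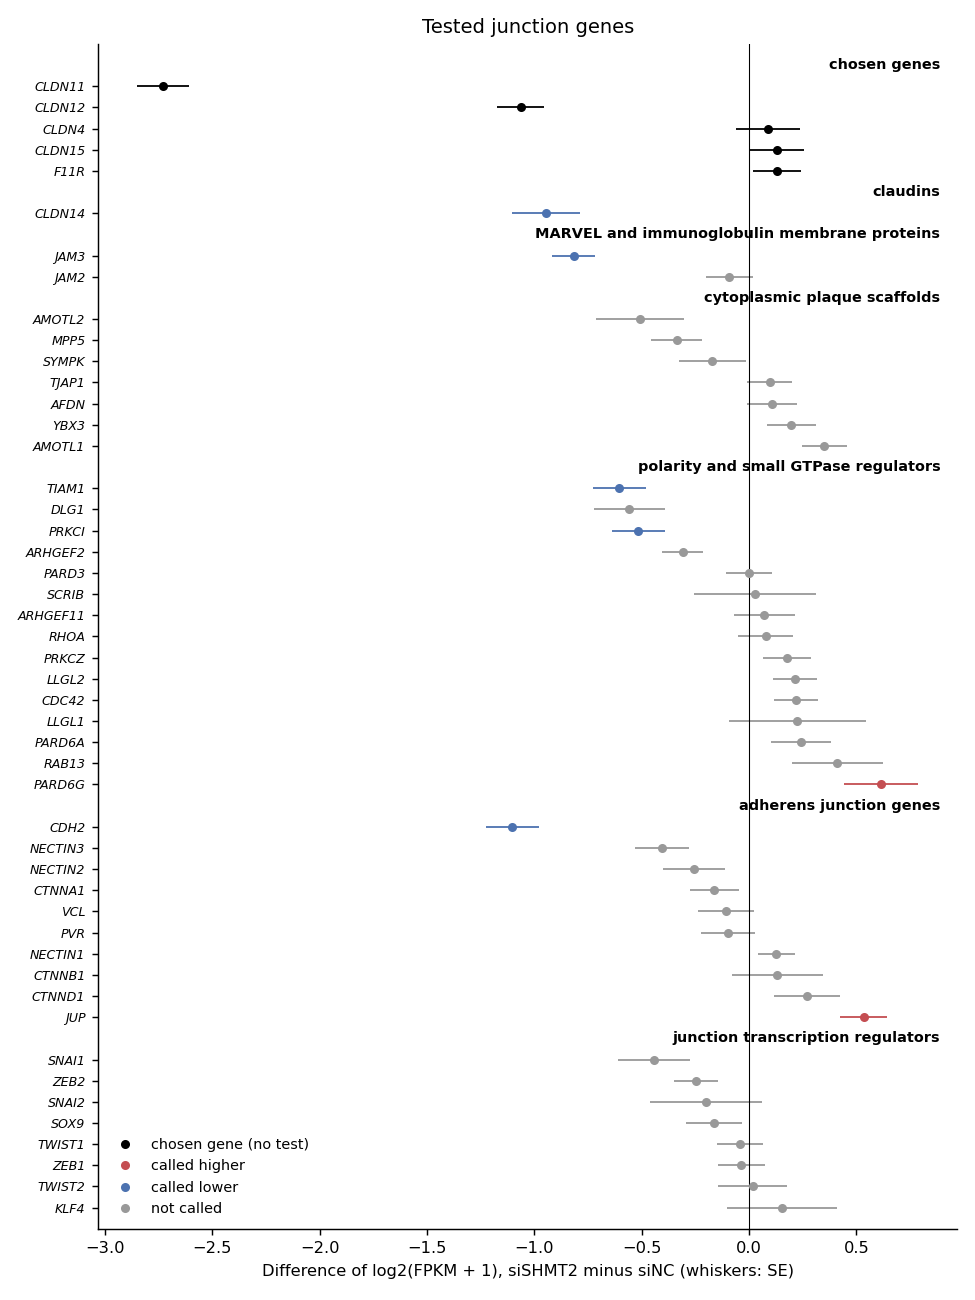
Difference of log2(FPKM + 1), siSHMT2 minus siNC, with SE (horizontal axis), for the 5 tested genes of the set (black, no test) and the 43 other tested junction genes by list; red was called higher, blue lower and grey not called. CLDN11 at -2.73 lies apart from the rest, CDH2 (-1.10), CLDN12 (-1.06), CLDN14 (-0.94) and JAM3 (-0.82) follow, and JUP (0.53) and PARD6G (0.61) are the called rises.

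The 3′ UTR words were also counted over these 43 genes. Either word stood in 13 of them, in 4 of the 5 called lower (CDH2, JAM3, PRKCI and TIAM1), in neither of the 2 called higher and in 9 of the 36 not called. The median 3′ UTR was 2386 bases in those 4 genes and 1840 bases in the 2 called higher, against 1091 bases in the 27 genes not called and without a word, and 2063 bases in the 9 not called with one. Among tested genes with a 3′ UTR of like length, the share with either word was 18.5% beside CDH2, 29.2% beside TIAM1, 40.6% beside JAM3 and 40.9% beside PRKCI, and 4.82% beside CLDN14. The counts themselves are not adjusted for length. Both words had also been picked earlier for going with lower transcripts in this same comparison, so nothing is read from how the counts divide by call. CLDN14 held neither word in 355 bases, like CLDN12 in 2543 bases, whereas JAM2, which was not called, held GACTTTA at 2 places. The sites of CDH2 (chr18:27951631-27951657, minus strand) and JAM3 (chr11:134150924-134150951, plus strand), the 2 largest falls of the 4, are shown with the words in capitals, both words overlapping in JAM3.
CDH2: tctagttttaGACTTTAgtttgttttt
JAM3: ttctaattttGACTTTAAatttttcatc

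The tested protein-coding genes with the profile most like that of CLDN11 over the 6 libraries were NAA50, CXCL8, PTX3, CSF2 and FSTL1. Likeness was the root mean square distance between log2(FPKM + 1) profiles, each centred on its own mean. The distance was 0.113 for NAA50, 0.130 for CXCL8, 0.182 for PTX3, 0.199 for CSF2 and 0.236 for FSTL1, against a median of 1.39 over 9484 genes. These 5 lay low in all 3 siSHMT2 libraries and high in all 3 siNC libraries, so the likeness follows largely from a difference of similar size, -2.79 to -2.36. The nearest, NAA50, which acetylates protein N termini, had 4.002, 3.20 and 4.35 FPKM in siSHMT2 and 27.6, 27.4 and 27.1 FPKM in siNC. None of the 5 is a junction gene of the lists above.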

How the data were processed

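RNA was measured in 3 siSHMT2 and 3 siNC libraries of LX2 cells, grouped by sample title. The authors deposited FPKM values for 60623 genes, for which the tools HISAT2 2.0.5 and featureCounts 1.5.0-p3 and a build named hg18 are listed per the submitters' processing notes. The coordinates of the table match GRCh38 instead: 99.92% of 58516 identifiers shared with GENCODE release 29 overlapped, and 7 of the 9 genes had identical ends. The sources used here do not give how strand, overlapping genes or multiply mapped reads were treated, and reads of overlapping, antisense or near-identical genes cannot be told apart.

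Within each library, the product of FPKM and length came in whole steps (all, 100%, of non-zero values within 0.02), which gave the recovered reads. The library totals behind the FPKM were 0.957 to 1.13 times the read sums. The 10865 genes whose mean FPKM reached 1 were fitted on log2(FPKM + 1) in R 4.3.3 by limma 3.58.1 (trended eBayes), and p-values were adjusted over all 10865 by Benjamini-Hochberg, with calls at 0.05. All differences are on that scale and understate low genes. Sequences came from GENCODE release 29 transcripts, and exon overlap from its annotation on either strand. The fit was tested on simulated reads. Alternatives covered pseudocount, filter, scaling, moderation, array weights, a replicate block, voom on recovered reads, the 3′ UTR set and leaving out each library.

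The 9 genes and the 6 lists were chosen with earlier results of these data known. The naming rule took the 9 genes, SHMT2, up to 4 tested genes of each list with the smallest adjusted p, the most abundant tested gene of each list and the 5 genes nearest to CLDN11 in profile. CLDN7, CLDN1, OCLN and TJP1 did not pass the filter and have values only. No protein sequence is shown.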

Additional observations from a re-analysis of the deposited data

How the results depend on the processing

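CLDN1, OCLN and TJP1 rested on only 2 to 61 reads per library, and why they were so low was not tested. The CLDN11 difference of -2.73 was -2.59 with array weights and -2.79 to -2.66 when 1 library was left out, and no called result changed sign. Genes called lower, 1070 in all, numbered 603 without a filter, 618 where the mean FPKM had to reach 5, 620 with TPM, 1976 with array weights, 696 with a replicate block and 502 to 1124 when 1 library was left out. Genes called higher, 659 in all, numbered 333, 1827 and 374 without a filter, with array weights and with the replicate block, and 228 to 731 when 1 library was left out. Of the 43 other junction genes, 5 were called lower, against 3 without a filter, 2 with that higher filter, 3 with TPM, 13 with array weights and 3 to 8 when 1 library was left out. The 2 called higher became 1 with a pseudocount of 0.1 or 0.5, without a filter, with the higher filter, with TPM, with median scaling and with the replicate block, 4 with array weights and 0 to 2 when 1 library was left out. Same-numbered libraries were not consistently alike: their deviations correlated at -0.02, -0.35 and 0.24 over tested genes, and not every library correlated best with its own number. Libraries of unlike number correlated at up to 0.50. Deviations from means of 3 libraries cannot show whether the libraries were paired. With the replicate block PARD6G and PRKCI were not called (limma adjusted p = 0.0833 and 0.0645). The counts with fewer genes tested or fewer libraries rest on less data, and the cause of the others was not tested. Searching all annotated 3′ UTRs in place of the longest raised the junction genes with either word to 15, against 13.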

Other observations

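Of the 39 listed junction genes outside the 9 that were detected below the filter, 8 had groups that did not overlap, 6 higher and 2 lower in siSHMT2. That is 15.4% higher and 5.13% lower, where 5.92% and 4.68% of all 16204 genes detected below the filter lay wholly higher or lower, many of them at a few reads. Among genes that passed the filter, 17.9% lay wholly higher and 18.6% wholly lower. The 39 and the 16204 genes were not matched for read depth, so nothing is read from the gap between their shares. The 8 are named after their values were seen, without a test. CGN, cingulin, a plaque protein that binds TJP1 and actomyosin, had 1.02, 1.33 and 0.994 FPKM in siSHMT2 and 0.639, 0.386 and 0.653 FPKM in siNC, from 358 reads in all in siSHMT2 and 179 in siNC. Its relative CGNL1, paracingulin, had 1.11, 1.003 and 0.825 FPKM in siSHMT2 and 0.455, 0.590 and 0.469 FPKM in siNC, from 411 reads in siSHMT2 and 207 in siNC. Both cingulins thus lay higher in siSHMT2, at 199% and 194% of the siNC mean, the opposite way to CLDN11. CLMP, an adhesion protein of the immunoglobulin family, had 0.469, 0.453 and 0.5003 FPKM in siSHMT2 and 0.226, 0.150 and 0.251 FPKM in siNC. The scaffold MAGI1 had 0.751 to 0.847 FPKM in siSHMT2 and 0.486 to 0.622 FPKM in siNC, and the cadherin CDH11 0.334 to 0.513 FPKM in siSHMT2 and 0.297 to 0.310 FPKM in siNC. NECTIN4, higher in siSHMT2, rested on 27 reads in siSHMT2 and 10 in siNC. PARD6B, a relative of PARD6G, lay the other way, with 0.106, 0.321 and 0.148 FPKM in siSHMT2 and 0.719, 0.368 and 0.650 FPKM in siNC. CLDN2, also lower, rested on 3 reads in siSHMT2 and 8 in siNC.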
